A study of Mus musculus with 6 samples.

Results

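The members described here are the mouse genes for iron and 2-oxoglutarate dioxygenases that use ascorbate, other than the Tet genes. They were chosen by name, as JmjC demethylases, collagen and HIF hydroxylases, the AlkB family and related enzymes. No value entered this rule, but the choice was made with earlier results of these data known. Of 47 named genes, 42 have a feature (a transcript cluster, the unit that the array reports) whose platform annotation gives that symbol alone, out of 22180 genes on 23521 such features. These 42 genes lie on 45 features, since Kdm6b, Asph and Phyh have more than 1 each. Kdm2b, Jmjd6, Riox2, Plod3 and Alkbh1 lie on features that carry a further symbol as well, and no value is given for them. RNA came from the R1 line of male 129X1 x 129S1 mouse embryonic stem cells, grown on gelatin in fetal bovine serum with the self-renewal cytokine LIF. For 3 days, 3 cultures received 0.74 mM (250 µg/ml) AA2G, ascorbic acid 2-glucose in the labels, a stable derivative from which cells release ascorbate, and 3 cultures received none. The submitters describe independent replicates of this single line, and each was hybridised to 1 Affymetrix Mouse Gene 2.0 ST array. Every p-value rests on the spread among these cultures alone. The test, limma, also draws each feature's variance towards a prior from all features (4.05 prior beside 4 residual degrees of freedom). Each SE below is drawn in this way and can be larger or smaller than what the feature's own arrays give. For the members that vary most, among them Egln3 and P4ha1, it is smaller, and their intervals are narrower for it.

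All of these enzymes hold an iron atom in the active site and use oxygen to split 2-oxoglutarate into succinate and carbon dioxide while they hydroxylate a substrate. On methyl groups the hydroxylation leads to demethylation, as in JmjC histone demethylases and in AlkB enzymes that act on DNA or RNA. On prolines and lysines it stabilises collagen or marks the hypoxia factor HIF for destruction. Ascorbate keeps the iron in its reduced form, so vitamin C acts on the activity of these proteins, whereas an array measures their transcripts only. Genes of this group are also known as targets of HIF, among them Egln3, P4ha1, Plod2 and Kdm3a.

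The cells carried the transcripts that define embryonic stem cells. Nanog was at 11.20, 11.13 and 11.17 in the AA2G arrays, against 11.31, 11.36 and 11.34 in the untreated arrays, on the log2 scale of the deposited values. Averaged over its 10 markers, the pluripotency list was lower on every AA2G array than on every untreated array, with a median difference of -0.10. Klf4 (-0.31 ± 0.07, SE), Nanog (-0.17 ± 0.07) and Pou5f1 (-0.16 ± 0.07) had an unadjusted limma p under 0.05. They are 30% of the list, beside 9.71% of all features. Groups did not overlap for 30% of the list, all lower with AA2G, beside 15.7% of all features. The part of these marker differences in the members' values was not tested. The mean signals of 12 primitive endoderm markers (5.96 to 6.04 with AA2G, 5.98 to 6.07 untreated) and of 9 measured fibroblast markers (5.65 to 5.73 with AA2G, 5.67 to 5.69 untreated) overlapped between the groups. None of the markers in the 6 lists of cell types passed limma. With unadjusted p below 0.05 the endoderm list had 2 higher and 2 lower features (33.3%, beside 9.71% of all features), the fibroblast list 0 and 1. The endoderm mean averages over opposite differences, Lama1 at 0.50 ± 0.09 (SE) and Sparc at 0.34 ± 0.07, against Lamb1 at -0.48 ± 0.14 and Sox7 at -0.20 ± 0.09. Groups did not overlap for 41.7% of the endoderm markers, beside 15.7% of all features. At that cut the trophoblast list had 0 higher and 1 lower feature (Krt8 at -0.35 ± 0.07). The neuroectoderm list also had 0 and 1 (Sox1 at -0.19 ± 0.08). The mesoderm list had 0 and 0, but all 6 of its measured genes were below 0 (mean signals 5.32 to 5.44 with AA2G, 5.44 to 5.58 untreated). Bulk RNA cannot tell fewer cells of a type from less RNA per cell. The table has no detection calls, so a dim value cannot be told from background, and because signals depend on each feature's probes, levels are compared between arrays and not between genes.

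None of the dioxygenase transcripts rose or fell past the threshold after 3 days of AA2G. In limma's fit of all features, 0 of the 45 member features passed a Benjamini-Hochberg adjusted p of 0.05, against 0.761% of all 23521 features. Without adjustment 3 member features had p below 0.05, those of Asph, Kdm3a and Alkbh8, which is 6.67% against 9.71% of the 23521 features. All 3 had lower values with AA2G, the direction of 5.06% of all features, and 0 had higher values, the direction of 4.66%. The AA2G arrays lay wholly below the untreated arrays for 7 member features and wholly above them for 0, together 15.6% of the members, and 15.7% of all features had groups that did not overlap (8.48% lower, 7.21% higher). Counted in either direction, the members' shares were thus at or below those over all features, but all of them lay on the lower side, where 15.6% of the members stand beside 8.48% of all features without overlap and 6.67% beside 5.06% with p below 0.05. No test of this direction was made.

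**Figure D1:**
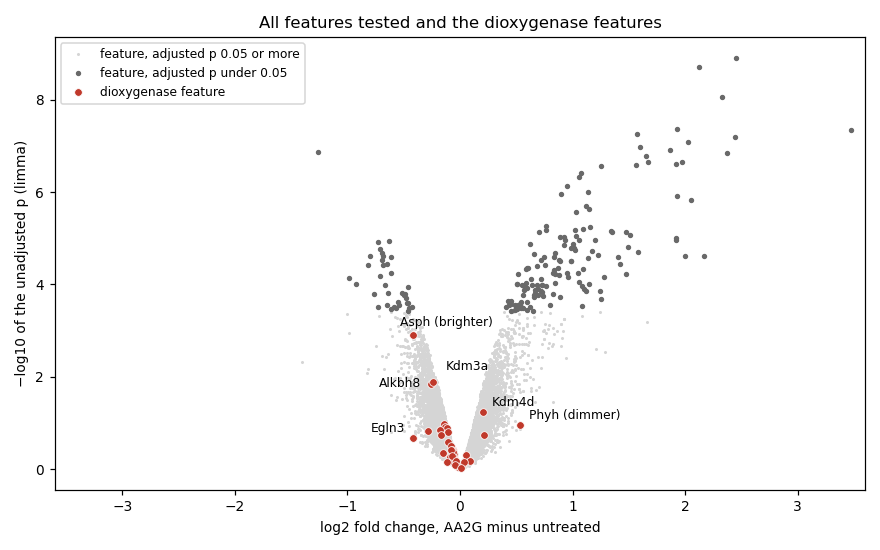
Each point is 1 feature, placed by its log2 fold change (AA2G minus untreated, horizontal axis) and by −log10 of its unadjusted limma p (vertical axis). The 45 dioxygenase features (red) lie between -0.42 and 0.54, below all 179 features with an adjusted p under 0.05 (dark grey).

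The size of change that the data leave room for was small for most members. For 38 of the 45 features the 95% interval of the fold change lay inside 1.5-fold in either direction (84.4%, against 93.7% of all features), and for 43 it lay inside 2-fold, as for 99.2% of all features. The 7 features with a wider reach were those of Kdm7a, Egln1, Egln3, P4ha1 and Plod2, the brighter feature of Asph and the dimmer feature of Phyh. These intervals rest on variances drawn towards the prior, so for the most variable members they are narrower than their own arrays would give. With 1 feature per gene, 34 of the 42 log2 fold changes were below 0 (81.0%), where 52.3% of all features, 52.4% of all genes and 55.2% of the genes with brighter features were. The members' median was -0.06, beside -0.01 for all genes, and none of the 34 passed.

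**Figure D2:**
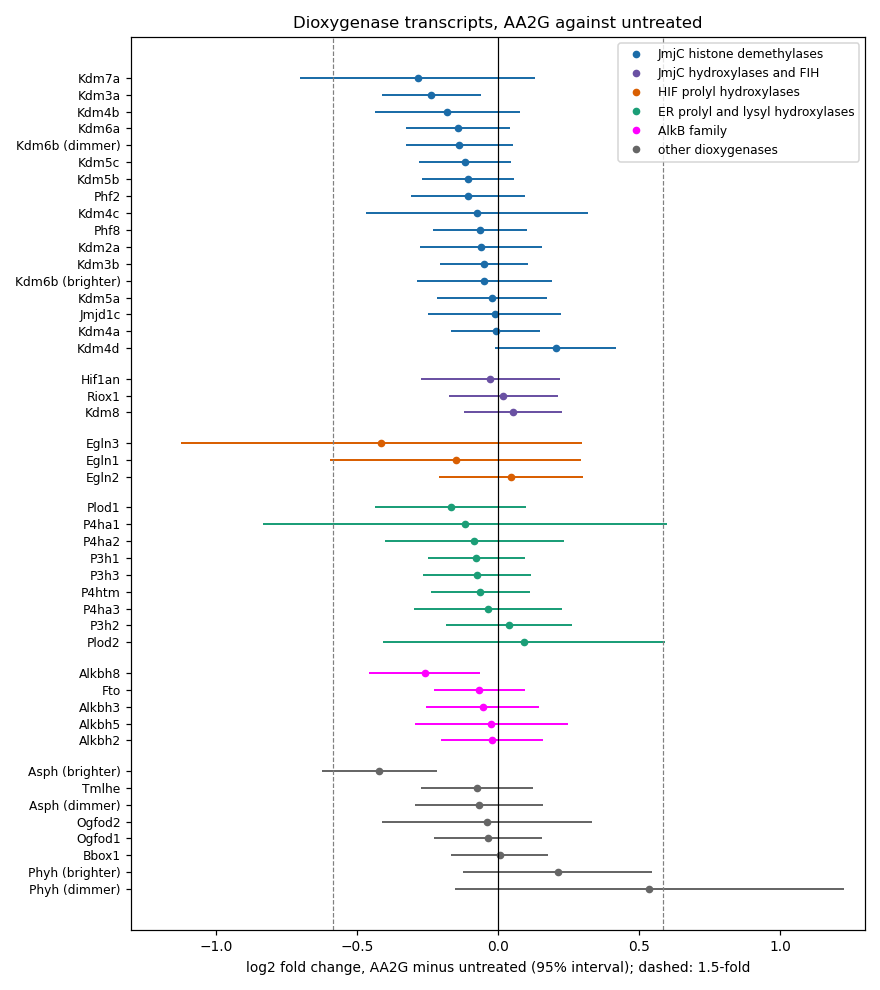
Log2 fold change of each dioxygenase feature, AA2G minus untreated (points), with its 95% interval (lines), coloured by enzyme class; dashed lines mark 1.5-fold. Intervals of Kdm3a, Alkbh8 and the brighter Asph feature lie below 0, and the widest are those of Egln3, P4ha1 and the dimmer Phyh feature.

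Among the JmjC histone demethylases, which remove methyl groups from lysines of histone tails, 16 of 17 named genes were measured, with a median log2 fold change of -0.07 and 15 values below 0. Kdm3a, a demethylase of lysine 9 on histone H3, had the smallest p of the class. Its values were 8.35, 8.26 and 8.33 in AA2G arrays, against 8.60, 8.58 and 8.46 in untreated arrays. The groups did not overlap, and the difference of -0.24 ± 0.07 (SE; limma adjusted p = 0.304) did not pass. Its relatives in the KDM3 subfamily had smaller differences, Kdm3b at -0.05 ± 0.07 and Jmjd1c at -0.01 ± 0.10, but the difference between paralogues was not tested. Kdm3b was among the least variable features of the series, with an SD between arrays of a group of 0.0259, which 98.8% of all features exceed.

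In the KDM4 subfamily, which acts on lysine 9 of histone H3, the 4 genes differed in their spread. Kdm4b was at 7.41, 7.14 and 7.23 with AA2G, against 7.62, 7.29 and 7.40 without, a difference of -0.18 ± 0.11 (SE; adjusted p = 0.675) between groups that overlapped. Kdm4c, which embryonic stem cells use to sustain self-renewal, was at 9.01, 8.54 and 8.72 with AA2G, against 9.14, 8.54 and 8.81 without. Arrays of a group lay further apart for Kdm4c than the group means, which differed by -0.08 ± 0.17 (adjusted p = 0.939). Kdm4d was the dimmest demethylase feature and the only demethylase with a value above 0, at 4.17, 4.14 and 4.33 with AA2G, against 3.92, 3.96 and 4.15 untreated (0.20 ± 0.09, adjusted p = 0.530). Its lowest AA2G array lay just under the highest untreated array, and Kdm4a was at -0.01 ± 0.07.

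Of the demethylases of lysine 4 and lysine 27 of histone H3, Kdm5b, Kdm5c and Kdm6a showed small differences with little spread. Kdm5b, the brightest feature of the class, was at 10.66, 10.58 and 10.62 with AA2G, against 10.73, 10.77 and 10.68 untreated. Kdm5c, on the X chromosome, was at 8.84, 8.89 and 8.86 with AA2G, against 9.02, 9.01 and 8.92 untreated. For both genes every AA2G array was below every untreated array, with Kdm5b at -0.11 ± 0.07 (SE; limma adjusted p = 0.693) and Kdm5c at -0.12 ± 0.07 (adjusted p = 0.662), while Kdm5a was at -0.02 ± 0.08. The X-linked Kdm6a, which acts on lysine 27, likewise had groups that did not overlap, at 9.39, 9.47 and 9.36 with AA2G, against 9.50, 9.65 and 9.49 untreated (-0.14 ± 0.08, adjusted p = 0.625). With Kdm3a and Kdm3b these make 5 of the 17 features of the class with AA2G arrays wholly below the untreated ones (29.4%), beside 8.48% of all features, a count that holds 0 genes past the threshold.

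Kdm6b, a further lysine 27 demethylase that is induced in inflammation and differentiation, has 2 features. The brighter was at 8.71, 8.40 and 8.54 with AA2G, against 8.73, 8.51 and 8.56 untreated (-0.05 ± 0.10), and the dimmer at 4.87, 4.72 and 4.67, against 4.94, 4.84 and 4.89 (-0.14 ± 0.08). Both sets of arrays overlapped. Kdm7a, of the subfamily that pairs a PHD finger with the JmjC domain, was at 6.73, 6.21 and 6.54 with AA2G, against 7.15, 6.63 and 6.57 untreated. Its difference of -0.29 ± 0.18 (SE; limma adjusted p = 0.685) was the most negative of the class, and the arrays of each group spanned more than this difference. Its relatives Phf2 and Phf8 were at -0.11 ± 0.09 and -0.07 ± 0.07, and the lysine 36 demethylase Kdm2a at -0.06 ± 0.09.

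The JmjC proteins that act mainly as hydroxylases showed the smallest differences. Kdm8, known as JMJD5, was at 5.78, 5.95 and 5.87 with AA2G, against 5.78, 5.85 and 5.81 untreated (0.05 ± 0.07, SE). Riox1, a ribosomal protein hydroxylase of the nucleolus, was at 7.91, 7.93 and 7.85, against 7.74, 7.97 and 7.92 (0.02 ± 0.08). Hif1an encodes FIH, the asparaginyl hydroxylase that blocks the transactivation domain of HIF. It was at 6.99, 7.32 and 7.06 with AA2G, against 7.05, 7.27 and 7.14 untreated (-0.03 ± 0.10), so that for all 3 genes the groups overlapped and the 95% intervals lay inside 1.5-fold.

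The HIF prolyl hydroxylases, which in the presence of oxygen mark HIF for destruction through the VHL ligase, included Egln3, whose SD between the arrays of a group (0.521) came next to that of P4ha1 (0.526) among the members. Egln3, itself a strongly hypoxia-induced gene, was at 9.56, 8.36 and 9.06 with AA2G, against 9.82, 8.97 and 9.45 untreated. The mean was lower with AA2G by a log2 difference of -0.41 ± 0.31 (SE; limma adjusted p = 0.747), but the arrays of a group spanned 1.20 with AA2G and 0.85 without, more than the groups differed. Without the number 1 AA2G array the difference was -0.70, and without the number 2 AA2G array it was -0.097. Each of these fits leaves the replicate numbers unbalanced between the groups. The AA2G array was below the untreated array at each of the 3 numbers, though the labels do not say that equal numbers are paired. Egln1, the main oxygen sensor of most tissues, was at 7.94, 7.12 and 7.61 with AA2G, against 7.88, 7.58 and 7.66 untreated (-0.15 ± 0.19, adjusted p = 0.868). Egln2 had its highest value in the number 2 array of each group, where Egln1 and Egln3 had their lowest. It was at 7.57, 7.81 and 7.55 with AA2G, against 7.44, 7.76 and 7.59 untreated (0.04 ± 0.11, adjusted p = 0.945).

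Among the prolyl and lysyl hydroxylases of the endoplasmic reticulum, most of which modify collagen, 9 of 10 named genes were measured, with a median of -0.07 and 0 features past the threshold or at an unadjusted p under 0.05 in limma. P4ha1, the main catalytic subunit of collagen prolyl 4-hydroxylase, was at 8.61, 7.60 and 8.10 with AA2G, against 8.74, 7.65 and 8.27 untreated. Its group means differed by -0.12 ± 0.31 (SE; limma adjusted p = 0.949), within a spread of 0.526 (SD of the arrays of a group), and only 0.0808% of all features had a larger SD. Plod2, the lysyl hydroxylase that acts on collagen telopeptides, was at 8.42, 7.82 and 8.14 with AA2G, against 8.44, 7.63 and 8.03 untreated (0.09 ± 0.21, adjusted p = 0.942). In both groups of both genes the number 1 array was highest and the number 2 array lowest.

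The other collagen hydroxylase genes were steadier. P4ha2, a further catalytic subunit, was at -0.08 ± 0.14 (SE) and Plod1, a lysyl hydroxylase of the collagen helix, at -0.17 ± 0.11, the most negative value of the class (limma adjusted p = 0.717). The prolyl 3-hydroxylase genes P3h1 and P3h3 were at -0.08 ± 0.07 and -0.07 ± 0.08. P3h2, the dimmest feature of the class, was at 4.64, 4.64 and 4.41 with AA2G, against 4.42, 4.52 and 4.64 untreated, with overlapping groups. P4htm, a transmembrane prolyl hydroxylase, was at -0.06 ± 0.07, and P4ha3, a dim feature, at -0.04 ± 0.11.

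In the AlkB family, 5 of 6 named genes were measured, and Alkbh8, which modifies the wobble uridine of tRNAs, had the smallest p of the family. It was at 8.14, 8.30 and 8.24 with AA2G, against 8.37, 8.57 and 8.53 untreated, with no overlap between the groups. The difference of -0.26 ± 0.08 (SE; limma adjusted p = 0.320) did not pass, and it was not tested against those of the other AlkB genes. Fto and Alkbh5, the demethylases of N6-methyladenosine in RNA, were close to their untreated values. Fto was at 7.51, 7.50 and 7.57 with AA2G, against 7.58, 7.57 and 7.64 untreated (-0.07 ± 0.07), with an interval from -0.23 to 0.09. Alkbh5, the brightest feature of the family, was at 8.71, 8.40 and 8.48, against 8.75, 8.44 and 8.47 (-0.02 ± 0.12). The alkylation repair genes Alkbh3 and Alkbh2 were close to 0, Alkbh3 at 6.83, 7.03 and 6.99 with AA2G, against 6.91, 7.08 and 7.01 untreated, and Alkbh2 at -0.02 ± 0.08.

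Asph had the smallest p of all members. It encodes the aspartyl/asparaginyl beta-hydroxylase of EGF-like domains, and the same locus gives rise to junctin and related calcium-handling proteins that lack the catalytic domain. Its brighter feature was at 6.53, 6.41 and 6.41 with AA2G, against 7.00, 6.85 and 6.76 untreated. Every AA2G array was below every untreated array, and the difference of -0.42 ± 0.09 (SE; 0.747-fold) had a limma adjusted p of 0.0955. It passed with array weights (-0.38, adjusted p = 0.0492) and with brighter features only (adjusted p = 0.0472), and without single arrays or single replicate numbers the adjusted p lay between 0.157 and 0.572. The dimmer feature of Asph did not share the difference, at 6.45, 6.67 and 6.36 with AA2G, against 6.48, 6.56 and 6.64 untreated (-0.07 ± 0.10, adjusted p = 0.887). The sources used here do not give which transcripts of the locus each feature covers.

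Phyh, the peroxisomal enzyme that starts the breakdown of phytanic acid, had the most positive values of the members. Its dimmer feature was at 5.63, 5.46 and 5.66 with AA2G, against 5.49, 4.23 and 5.42 untreated. The difference of 0.54 ± 0.30 (SE; limma adjusted p = 0.640) rested on the single low untreated array of number 2 and was 0.13 without it. The brighter Phyh feature was at 7.74, 7.24 and 7.55 with AA2G, against 7.51, 7.13 and 7.25 untreated (0.21 ± 0.14, adjusted p = 0.717). Ogfod1, a ribosomal prolyl hydroxylase, was the brightest of the remaining enzymes, at 8.36, 8.52 and 8.42 with AA2G, against 8.45, 8.57 and 8.39 untreated (-0.03 ± 0.08), and Ogfod2 was at -0.04 ± 0.16.

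The carnitine synthesis enzymes gave dim features. Bbox1, which makes carnitine in the last step, was at 3.47, 3.64 and 3.53 with AA2G, against 3.56, 3.52 and 3.54 untreated, and Tmlhe, which hydroxylates trimethyllysine in the first step, was at -0.08 ± 0.08 (SE). For Bbox1, 14.7% of all features had a lower mean signal, so its difference of 0.01 ± 0.07 says little about the gene.

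**Figure D3:**
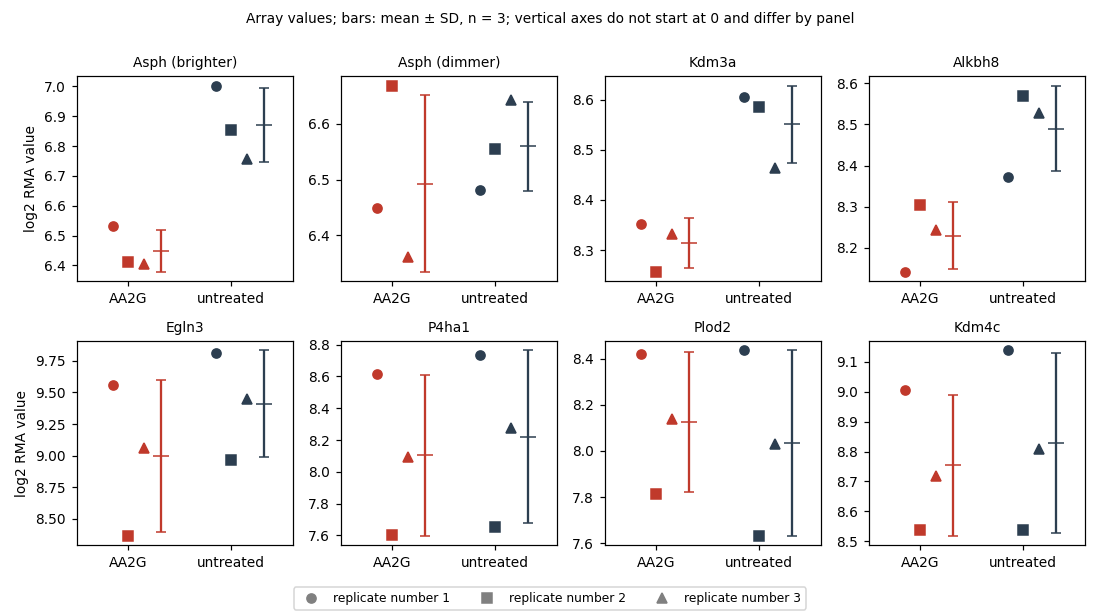
Log2 values of 8 dioxygenase features on each array, AA2G (red) and untreated (dark), with the replicate number given by the symbol and the mean ± SD (n = 3) beside each group. The groups do not overlap for Kdm3a, Alkbh8 and the brighter Asph feature, whereas for Egln3, P4ha1, Plod2 and Kdm4c the number 1 arrays are highest and the number 2 arrays lowest in both groups.

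The largest differences among arrays in this gene group were not between AA2G and untreated cultures but between replicate numbers. The log2 value of the number 1 array exceeded that of the number 2 array for P4ha1 by 1.01 with AA2G and by 1.08 untreated. For Egln3 the same gaps were 1.20 with AA2G and 0.85 untreated, for Plod2 0.61 and 0.80, and for Kdm4c 0.47 and 0.60. The order number 1 highest, number 3 between and number 2 lowest held in both groups for 11 of the 45 member features, beside 7.66% of all features. Of the 9 members listed as HIF-inducible from the literature, 7 had it, namely Egln1, Egln3, Kdm4b, Kdm4c, P4ha1, P4ha2 and Plod2. Kdm3a and Plod1 did not. The HIF-inducible list was drawn up with earlier results of these data known, so it is not independent of them. The order was likewise picked from these data, so counts of it, here and below, are a description and not a test.

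The members listed as HIF-inducible spread more between the arrays of a group than the others did, with a median SD of 0.271 against 0.0944 for the other members and 0.115 for all features. Known HIF targets outside the enzyme group had the same order of arrays on 15 of 23 features. Ndrg1, a hypoxia-induced stress gene, was at 8.52, 7.00 and 7.93 with AA2G, against 8.49, 6.87 and 7.85 untreated, and Bnip3, a mitophagy receptor, at 8.43, 7.66 and 8.16, against 8.52, 7.67 and 8.07. In limma 0 of these 23 features passed, and 0 had an unadjusted p below 0.05. The labels name no batch, culture date or oxygen condition, and what differed between the replicate numbers was not tested.

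**Figure D4:**
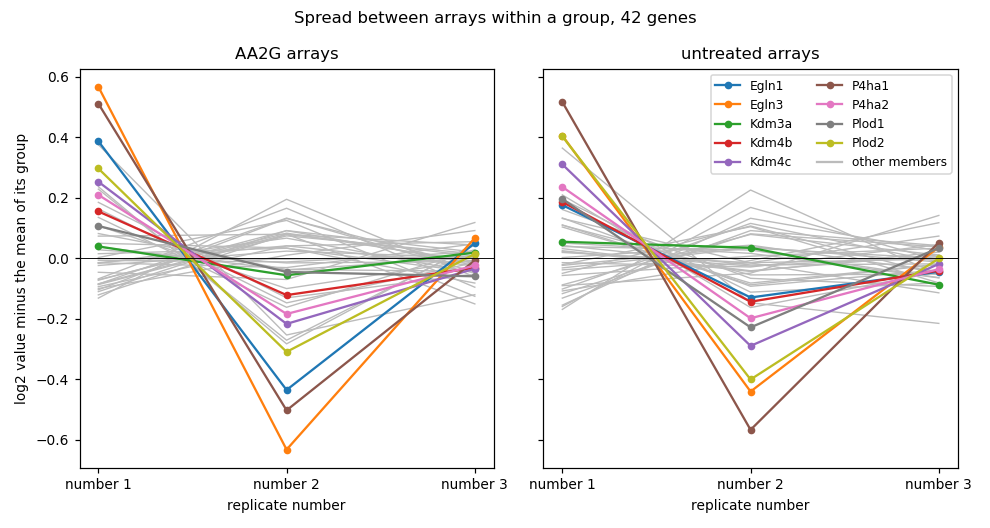
Log2 value of each member gene minus the mean of its group (vertical axis) by replicate number, for AA2G arrays (left) and untreated arrays (right). The 9 members listed as HIF-inducible are coloured and the other members grey; P4ha1 and Egln3 run from more than 0.4 above their mean in number 1 arrays to more than 0.4 below it in number 2 arrays in both groups.

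HIF is known to bind the hypoxia response element, and the promoters of 3 of the listed HIF-inducible members are shown with its core, ACGTG or GCGTG, in capitals on either strand (CACGT and CACGC as read on the other strand). The windows hold the 250 bases before the RefSeq start in GRCm38.p6, written in the direction of transcription: P4ha1 at chr10:59323046-59323295 on the plus strand, Egln3 at chr12:54203875-54204124 on the minus strand and the Kdm4c start at chr4:74251629-74251878 on the plus strand.
P4ha1: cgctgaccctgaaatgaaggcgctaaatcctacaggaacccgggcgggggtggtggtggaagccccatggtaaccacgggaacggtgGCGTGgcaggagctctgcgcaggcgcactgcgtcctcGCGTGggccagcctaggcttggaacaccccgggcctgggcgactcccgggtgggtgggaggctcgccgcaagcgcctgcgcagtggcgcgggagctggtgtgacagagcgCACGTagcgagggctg
Egln3: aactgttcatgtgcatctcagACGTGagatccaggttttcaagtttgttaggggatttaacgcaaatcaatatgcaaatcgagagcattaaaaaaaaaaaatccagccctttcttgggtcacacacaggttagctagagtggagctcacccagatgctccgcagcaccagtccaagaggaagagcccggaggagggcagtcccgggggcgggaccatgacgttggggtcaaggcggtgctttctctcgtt
Kdm4c: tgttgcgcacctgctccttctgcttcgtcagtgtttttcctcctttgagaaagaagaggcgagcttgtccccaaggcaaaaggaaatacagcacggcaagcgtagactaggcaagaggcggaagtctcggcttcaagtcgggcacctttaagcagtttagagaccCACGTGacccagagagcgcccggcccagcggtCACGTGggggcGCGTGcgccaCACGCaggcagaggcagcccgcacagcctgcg
P4ha1 has 3 cores, Egln3 1, and this Kdm4c start 6, counting both strands where a palindromic CACGTG is read on each; a second listed Kdm4c start has 0. A core occurred before at least 1 listed start in all 7 HIF-inducible members with a promoter in the RefSeq table, in 14 of 31 other members (45.2%) and in 41.5% of the 27025 genes of the table. Those 7 genes include Kdm3a and Plod1, which lack the shared order of arrays, while Kdm4b and Plod2, which have it, have no promoter here. Grouped by that order instead, 6 of 8 measured members with it had a core (Phf2 and Phyh had 0), against 11 of 25 without it (44.0%). That order was itself picked from these data. A match of these bases is a description and not a binding site, and whether HIF had a part in the differences between replicate numbers was not tested.

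Of the genes around these enzymes, from 9 lists of relatives, partners and cofactor supply, a single one passed the threshold. Among 13 measured relatives of the group, Kdm5d, the Y-linked paralogue of Kdm5c, rose by 0.66 ± 0.10 (SE; limma adjusted p = 0.0310). It was at 3.62, 3.95 and 3.64 with AA2G, against 3.11, 3.01 and 3.11 untreated, values that cannot be told from background. The call was lost in all fits that left out an array or a replicate number (adjusted p from 0.0547 to 0.321), with all features of the table (0.106) and with the replicate block (0.101). Uty, the Y-linked paralogue of Kdm6a, was at 0.24 ± 0.10 (adjusted p = 0.517).

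The partners of the HIF and collagen hydroxylases had 0 calls in limma. Of 11 features for 10 HIF pathway genes, 1 had an unadjusted p below 0.05, that of Cited2, which competes with HIF for its coactivator. Cited2 was at 9.10, 9.02 and 9.04 with AA2G, against 9.19, 9.97 and 9.63 untreated (-0.54 ± 0.17, SE; adjusted p = 0.311), with groups that did not overlap and untreated arrays further apart than the AA2G arrays. Hif3a was at -0.32 ± 0.15. Among 17 measured HIF targets the smallest p belonged to Fam162a (-0.20 ± 0.09) and Pfkfb4 (0.17 ± 0.09). Of 7 measured collagen hydroxylase partners, 1 was lower at an unadjusted p under 0.05, P3h4 at -0.19 ± 0.07 (adjusted p = 0.443), and the prolyl isomerase Ppib was at 0.15 ± 0.07.

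Enzymes that oppose the demethylases also gave 0 calls. Among 15 measured histone methyltransferases 0 had an unadjusted p below 0.05 and 12 were below 0, with Kmt2d at -0.19 ± 0.08 (SE; limma adjusted p = 0.518) and Ehmt2, also known as G9a, at -0.15 ± 0.08. The flavin-dependent demethylases Kdm1a and Kdm1b, which need no ascorbate, were at -0.08 ± 0.07 and -0.09 ± 0.09. In the complex that writes N6-methyladenosine, Wtap was at -0.08 ± 0.07 and Mettl14 at 0.05 ± 0.08.

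Genes for the supply of 2-oxoglutarate and iron had 0 calls, with median log2 fold changes of 0.02 (4 of 20 genes below 0) and 0.05 (2 of 8 below 0), and neither list was tested as a whole. Of 22 features for 2-oxoglutarate, succinate and fumarate metabolism, limma called 0, and 3 had an unadjusted p below 0.05, all with higher values in AA2G arrays, as did 4.66% of all features. They are both features of Suclg2, a subunit of succinyl-CoA ligase, the brighter at 0.17 ± 0.07 and the dimmer at 0.23 ± 0.08 (SE; adjusted p = 0.466 and 0.387), and that of Idh1, which makes 2-oxoglutarate in the cytosol, at 0.21 ± 0.09 (adjusted p = 0.466). Of 8 iron supply genes 0 passed and 2 were higher at an unadjusted p under 0.05, the ferrireductase Steap3 at 0.45 ± 0.14 (adjusted p = 0.302) and the transferrin receptor Tfrc at 0.23 ± 0.09 (adjusted p = 0.456). The groups did not overlap for either.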

How the data were processed

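Expression was measured in 3 AA2G-treated and 3 untreated cultures. The deposited log2 values were made by the authors, who per the submitters' processing notes used RMA (background correction, quantile normalization and summary) and Affymetrix Expression Console. The sources used here give neither versions nor filters. Quantile normalization hides a change of total RNA per cell, and RMA understates changes of dim features. Symbols come from the platform annotation, and 23328 of 23521 features matched RefSeq through Entrez Gene. Under R 4.3.3, limma 3.58.1 fitted AA2G minus untreated (lmFit and eBayes, two-sided, no covariate, 4 residual degrees of freedom) over the 23521 features with 1 symbol, with Benjamini-Hochberg adjustment over all of them. Exact permutation of 3 against 3 arrays cannot go below p = 0.1. The fit was tested on simulated arrays. An array has no read depth, and precision is limited by how few arrays there are. The members, classes and lists were chosen with earlier results of these data known. Values per array are given for the 12 members with the smallest p, for 13 genes picked by role (of which Kdm2b, Jmjd6 and Alkbh1 have no feature of their own) and for the brightest and dimmest feature of each class. In each list of related genes, the 2 with the smallest p are named. Nanog, Klf4, Pou5f1, Lama1, Sparc, Lamb1, Sox7, Krt8, Sox1, Ndrg1, Bnip3 and the dimmer Asph feature were named after their values were seen. Alternatives were repeated quantile normalization, a common median, array weights, a prior that is trended and robust, the replicate block, brighter or all features, 1 feature per gene and leaving out arrays.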

Additional observations from a re-analysis of the deposited data

How the results depend on the processing

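The count of 0 member features past the threshold held in the limma fits with quantile normalization repeated, arrays shifted to a common median, a trended robust prior, the replicate block, all features of the table and 1 feature per gene, and in the 9 fits that left out an array or a replicate number (0 to 0). It was 1, the brighter Asph feature, with array weights (-0.38, adjusted p = 0.0492) and with brighter features only (adjusted p = 0.0472). The count over all features was 179, against 496 with array weights, 277 with a trended robust prior, and from 21 to 131 when arrays were left out, where leaving out a replicate number in both groups was added after the data were seen and leaves 2 arrays a group. The members' median of -0.06 lay between -0.08 and -0.05 under every alternative, and 22 of 45 member features kept 1 sign throughout. Array weights turned the sign of Alkbh5 (0.0028), Riox1 (-0.023), P3h2 (-0.082), Ogfod1 (0.0031) and Bbox1 (-0.00050), and repeated quantile normalization that of Bbox1 (-0.010). Leaving out arrays turned the sign of 13 of the named features, with log2 fold changes of Alkbh3 from -0.10 to 0.0058, Alkbh5 from -0.12 to 0.073, Egln1 from -0.34 to 0.067, Egln2 from -0.037 to 0.13, the brighter Kdm6b feature from -0.13 to 0.024, Kdm4c from -0.22 to 0.0797, Hif1an from -0.13 to 0.038, Riox1 from -0.055 to 0.064, Plod2 from -0.11 to 0.29, P3h2 from -0.052 to 0.17, P4ha1 from -0.40 to 0.14, Ogfod1 from -0.076 to 0.017 and Bbox1 from -0.048 to 0.051. Without a turn of sign, leaving out arrays moved by over 1.5 times the values of Egln3 (-0.70 to -0.097), Kdm7a (-0.42 to -0.10), Kdm4b (-0.26 to -0.087), Kdm6a (-0.18 to -0.090), Kdm5b (-0.13 to -0.066), Kdm8 (0.014 to 0.096) and Phyh (brighter 0.097 to 0.35, dimmer 0.13 to 0.76). Leaving out an array of 1 group unbalances the replicate numbers, so for genes that vary by number these ranges mix both differences. Of the 13 features that turned, Alkbh3, the brighter Kdm6b feature, Kdm4c and P4ha1 were lower with AA2G at each number, and the others were not. The labels do not say that the numbers pair the samples, and they were not taken to do so. Deviations from the group mean were correlated between same-numbered arrays across features, which are not independent. The r was 0.231 for number 1, 0.224 for number 2 and 0.0169 for number 3, each higher than with any other number. This is a hint from the data and not the design. The low r of number 3 cannot decide on pairing, since a number that lies between the others deviates little from the mean. The replicate block gave 155 calls over all features and changed no call of a member. The causes were not tested. Dim features such as Bbox1 and Kdm4d are limited by background.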
